A study of Mus musculus with 12 samples.

Results

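Nuclear pore and nuclear transport genes were followed in RNA-seq of mouse ear fibroblasts as a list of 38 genes, all of which were in the count table of 33246 genes and all of which were among the 14542 genes with enough counts to test. The list was written by gene name, with no threshold on a measured value. It holds 28 nucleoporins, the proteins that build the pore, and 10 transport receptors, which carry cargo through it. The cells were taken at passage 2 and kept for 48 h on gels of alginate, a polysaccharide coupled here to RGD peptides to which cells adhere. Gels with a stiffness of 2 kPa or 20 kPa were elastic (covalently crosslinked, little stress relaxation) or viscoelastic (ionically crosslinked, slow stress relaxation). Each of the 4 groups had 3 samples. The study's methods name C57BL/6 mice of 1 month, male and female, as the source of ear fibroblasts, and also Tau-EGFP reporter mice, while the labels give no strain and do not say whether the 3 samples of a group came from separate animals. The p-values below therefore measure the spread between these samples.

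Counts on genes ran from 36626221 to 43612804 per sample. The 10 fibroblast markers (Col1a1 and Vim among them) summed to between 23900 and 29400 CPM (the gene's counts on a scale common to all libraries, after TMM normalization), and each marker list of keratinocytes, immune, endothelial, muscle, and Schwann or melanocyte cells to at most 7.31 CPM in any sample, with 4 of 6, 2 of 6, 4 of 4, 0 of 4 and 3 of 5 of their genes high enough to test. Markers of cartilage cells, whose matrix supports the ear, were present: Col2a1, Acan, Col9a1 and Matn1 summed to between 3540 and 3700 CPM on 20-kPa elastic gels, 3940 and 5080 on 2-kPa elastic gels, 3740 and 4800 on 2-kPa viscoelastic gels and 3690 and 5000 on 20-kPa viscoelastic gels, with Matn1 itself at or near 0. The part of these cells in the results below was not tested.

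The nuclear pore complex is a ring-shaped channel that spans the nuclear envelope and is the route for nearly all exchange between nucleus and cytoplasm. Scaffold nucleoporins of the Y complex and the inner ring form its frame, membrane nucleoporins anchor the frame in the envelope, and FG nucleoporins, named for their repeats of phenylalanine and glycine, fill the channel and bind passing receptors. Importin alpha proteins recognise nuclear localisation signals and are carried by importin beta (Kpnb1), whereas other members of the importin beta family bind cargo directly, and the small GTPase Ran gives transport its direction. Pores are assembled both after mitosis and into the growing nucleus of interphase.

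The levels of the 38 genes spread widely. Per kilobase of exon, the mean over all 12 samples was highest for Kpnb1 (77.0 CPM per kb), followed by the Y complex member Sec13 (45.2), which also serves in the COPII coat of secretory vesicles, the importin Ipo5 (37.97) and the nuclear basket protein Tpr (34.1). At the other end stood the inner ring member Nup35 (2.09 CPM per kb) and the membrane nucleoporin Nup210. Nup210, known for its tissue-restricted expression, had only 8 to 30 counts per sample (0.0373 CPM per kb), which makes its fold changes imprecise. Every other member had at least 257 counts in each sample.

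At 20 kPa, the transcripts of the pore and its receptors were lower on viscoelastic than on elastic gels. Of the 38 members 30 were down-regulated and 0 up-regulated (edgeR quasi-likelihood test, BH-adjusted p under 0.05), against 16.0% down-regulated and 17.3% up-regulated among all tested genes. DESeq2 also called 30 lower and 0 higher. The median log2 fold change of the members was −0.32, a median fold of 0.803, while that of all tested genes was 0.016. Every receptor was down-regulated (5 of 5 importin alpha genes, median −0.29 on the log2 scale, and 5 of 5 of the importin beta family, median −0.42). So were 7 of 7 FG nucleoporins (median −0.31), 10 of 14 scaffold nucleoporins (median −0.31), 2 of 3 membrane nucleoporins (median −0.52) and 1 of 4 other peripheral nucleoporins (median −0.088). The difference between these classes was not tested. In bulk RNA a lower value can come from fewer cells of a type or from less RNA per cell, and these cannot be told apart. CPM are shares of a library, so a change in total RNA per cell is not seen. The count was 25 without 20-kPa elastic replicate 3, the library with the highest level in 30 of the 38 members, and 25 without 20-kPa viscoelastic replicate 2, which had the lowest level in 17.

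At 2 kPa viscoelastic gels gave 13 members down-regulated and 0 up-regulated, against 11.1% and 8.76% of all tested genes (edgeR), with a median log2 fold change of −0.19 for the members and of −7.47e-05 for all tested genes. DESeq2 called 14 lower. By class, 6 of 14 scaffold, 2 of 3 membrane and 2 of 7 FG nucleoporins were down-regulated, with 0 of 4 other peripheral nucleoporins, 2 of 5 importin alpha genes (Kpna2 and Kpna6) and 1 of 5 of the importin beta family (Xpo1). All 13 were also among the 30 of 38 called at 20 kPa. The overlap among all tested genes was not counted, so the 13 cannot be read against it. These comparisons share no sample but were made in 1 fit of all 12 samples, and their overlap was not tested. The count of 13 rested in part on single libraries: it was 6 without 2-kPa elastic replicate 1, 7 without replicate 2 of that group, and 8 without 2-kPa viscoelastic replicate 3. Scaling by total counts alone, which moved the split over all genes from 1274 higher and 1616 lower to 1665 higher and 1242 lower, left 9 members lower and 0 higher. At 20 kPa the same scaling gave 2928 genes higher and 1893 lower in place of 2522 and 2326, and 27 members lower and 0 higher.

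**Figure D1:**
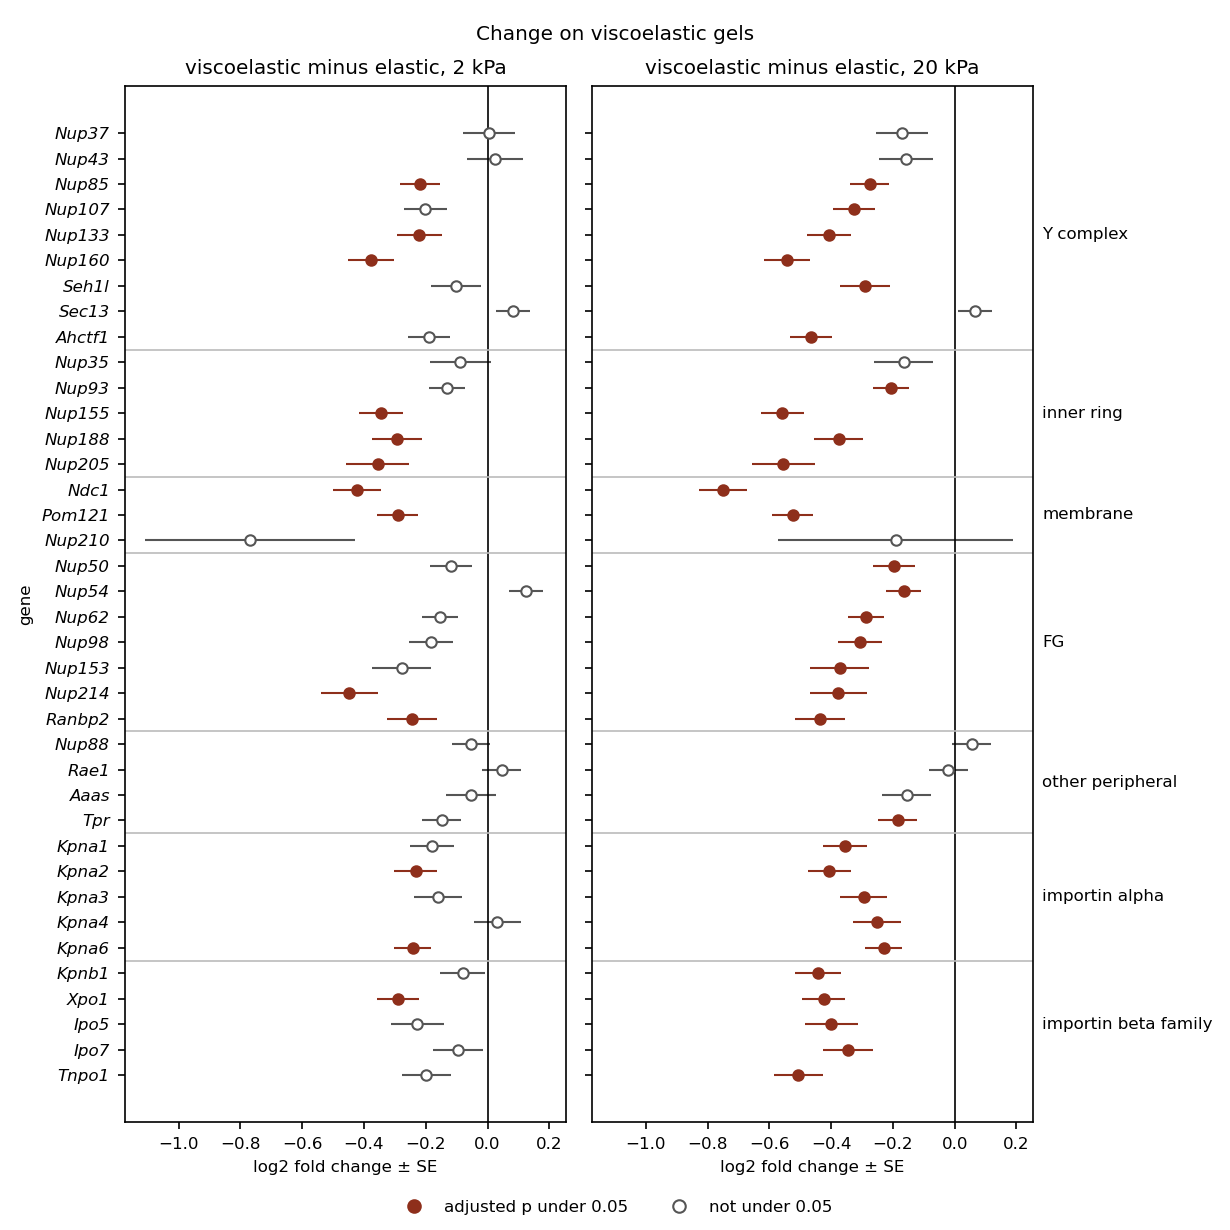
Log2 fold change (point) and its standard error (bar) of each of the 38 genes on viscoelastic against elastic gels at 2 kPa (left) and 20 kPa (right), from the edgeR fit of all 12 samples, with genes ordered by class. Filled points passed an adjusted p of 0.05. At 20 kPa 30 filled points lie to the left of 0 and at 2 kPa 13 do, with Ndc1 farthest to the left of the filled points at 20 kPa (−0.75).

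Averaged over both stiffnesses, 28 members were down-regulated and 0 up-regulated on viscoelastic gels, where 20.5% of all tested genes were down-regulated (edgeR). The median log2 fold change was −0.25 for the members and 0.0097 for all tested genes. Among the members called, the largest decreases in this average belonged to the membrane nucleoporin Ndc1 (−0.59), the Y complex member Nup160 (−0.46), and the inner ring members Nup205 (−0.45) and Nup155 (−0.45). Nup210, with its few counts, had −0.48 (adjusted p = 0.149 in edgeR). Sec13 was the member with the highest value (0.075, adjusted p = 0.135 in edgeR). It passed the threshold as higher when libraries were scaled by total counts alone.

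On elastic gels the comparison ran with stiffness: 11 members were higher and 0 lower at 20 kPa than at 2 kPa, where the shares among all tested genes were 6.83% and 7.17% (edgeR). The median log2 fold change was 0.18 for the members and −0.0083 for all tested genes. The 11 were Nup37, Nup43 and Nup155 of the scaffold, Ndc1 of the membrane class, the FG nucleoporins Nup54 and Nup62, and the receptors Kpna2, Kpna3, Kpna4, Kpnb1 and Ipo7, with log2 fold changes from 0.22 (Nup62) to 0.33 (Kpnb1, 1.26-fold). DESeq2 called 14 higher and 0 lower. Only Nup54 and Kpnb1 kept the call in every alternative fit. The count was 5, 4 and 4 without 2-kPa elastic replicates 1, 2 and 3, and 2 without 20-kPa elastic replicate 3.

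On viscoelastic gels no member passed the test between 20 kPa and 2 kPa. The count was 0 in either direction with edgeR and 0 with DESeq2. Among all tested genes 1.60% were up-regulated and 0.722% down-regulated in edgeR. An unadjusted p under 0.05 was reached in edgeR by 0 of the members and by 2750 of all 14542 tested genes. The members' median log2 fold change was 0.024. The single values ran from −0.20 (Nup210) to 0.13 (Nup35 and Nup88). For Ndc1, which rose by 0.32 with stiffness on elastic gels, the value was −0.0054 on viscoelastic gels with a 95% confidence interval from −0.17 to 0.16.

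**Figure D2:**
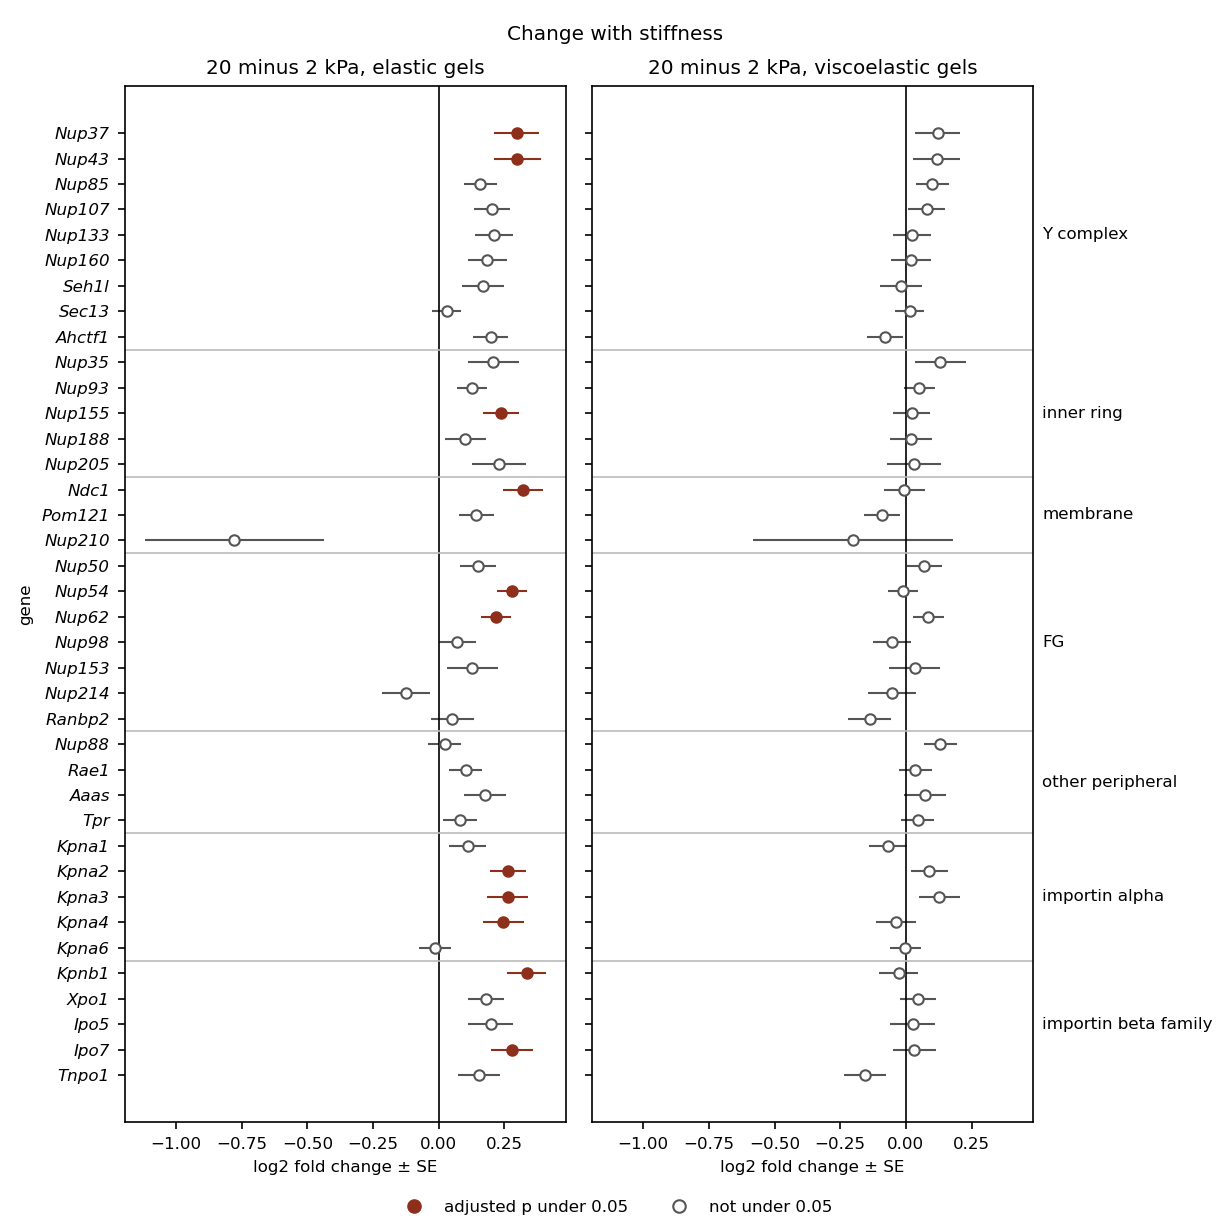
Log2 fold change (point) and its standard error (bar) of each of the 38 genes on 20-kPa against 2-kPa gels, for elastic (left) and viscoelastic gels (right), from the edgeR fit of all 12 samples. The 11 filled points, which passed an adjusted p of 0.05, are all on elastic gels and all to the right of 0, and 0 points are filled on viscoelastic gels.

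The 20-kPa elastic group had the highest mean of the 4 groups in 33 of the 38 members, where 25.3% of all tested genes had theirs. It was the lowest group for 0 members and for 30.2% of all tested genes. The lowest mean was on 2-kPa viscoelastic gels for 20 members, on 20-kPa viscoelastic gels for 13 and on 2-kPa elastic gels for 5, where 18.9%, 26.4% and 24.5% of all tested genes had theirs. Within groups the libraries also stood apart from each other. The median member, taken as log2 CPM relative to its own mean over the 12 libraries, was at 0.12, 0.20 and 0.29 in the 3 libraries of the 20-kPa elastic group, and at −0.030, −0.27 and −0.083 in those of the 20-kPa viscoelastic group. It was at 0.067, 0.062 and 0.0062 in the 2-kPa elastic and at −0.072, −0.18 and −0.16 in the 2-kPa viscoelastic libraries. All 6 elastic libraries were above 0 and all 6 viscoelastic libraries below it.

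**Figure D3:**
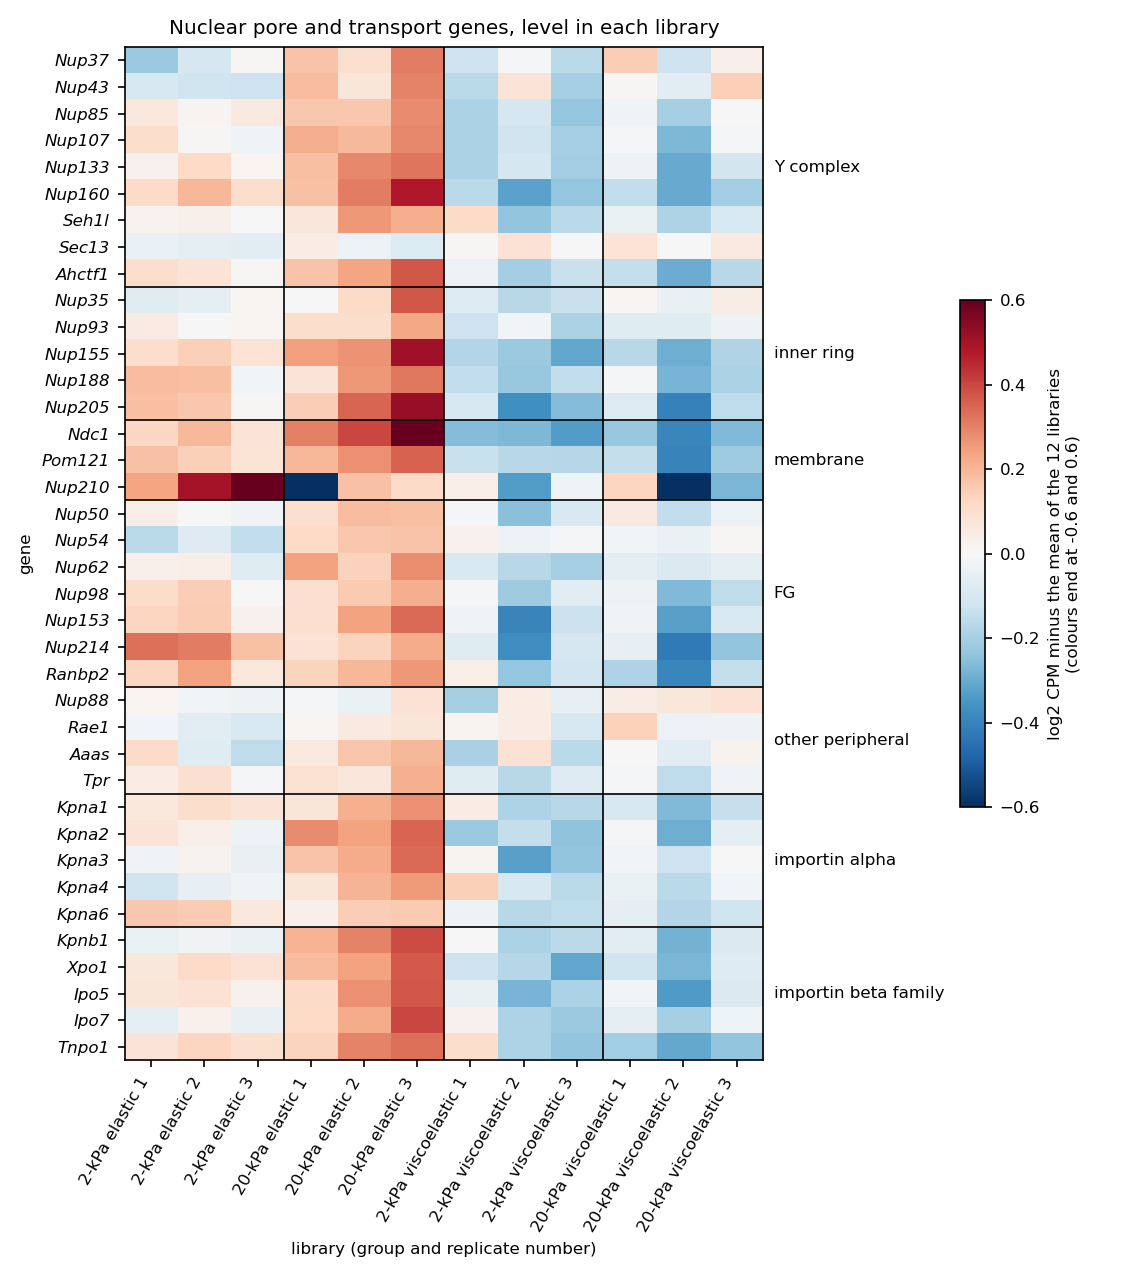
Level of each of the 38 genes (vertical, by class) in each of the 12 libraries (horizontal, by group and replicate), as log2 CPM minus the gene's mean over the 12 libraries, red for higher and blue for lower. The 3 columns of 20-kPa elastic gels are the reddest, the 6 viscoelastic columns are mostly blue, and the row of Sec13 is the palest, with no library more than 0.087 from its mean.

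Of the scaffold, Nup160 and Nup155 had the lowest adjusted p. Nup160, a large subunit of the Y complex (chromosome 2, 90677215 to 90736328, plus strand, mm10), was at 43.8, 46.5 and 43.5 CPM on 2-kPa elastic gels, 45.6, 50.0 and 56.4 on 20-kPa elastic gels, 36.1, 32.4 and 34.5 on 2-kPa viscoelastic gels and 36.6, 32.8 and 35.1 on 20-kPa viscoelastic gels. All 6 viscoelastic values lay below all 6 elastic ones, and the ranges of the 2-kPa and 20-kPa viscoelastic groups overlapped. The log2 fold change on viscoelastic gels was −0.54 ± 0.075 (SE, BH-adjusted p = 0.000141) at 20 kPa and −0.38 ± 0.075 (SE, BH-adjusted p = 0.00281) at 2 kPa in edgeR. Nup155, an inner ring subunit that contacts the membrane (chromosome 15, 8109273 to 8161247, plus strand), was at 60.4, 62.0 and 59.6 CPM on 2-kPa elastic gels, 66.7, 67.8 and 79.9 on 20-kPa elastic gels, 49.7, 48.2 and 45.4 on 2-kPa viscoelastic gels and 50.1, 45.9 and 49.6 on 20-kPa viscoelastic gels. The order of the groups was the same, with 79.9 CPM in 20-kPa elastic replicate 3 as the highest value. Its log2 fold change on viscoelastic gels was −0.56 ± 0.070 (SE, BH-adjusted p = 9.22e-05) at 20 kPa and −0.34 ± 0.070 (SE, BH-adjusted p = 0.00322) at 2 kPa, and with stiffness on elastic gels it was 0.24 ± 0.069 (SE, BH-adjusted p = 0.0328) in edgeR. This last call was lost with the replicate number as a block and without 20-kPa elastic replicate 3. It was also lost without any single library of the 3 on 2-kPa elastic gels.

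Of the other 12 scaffold genes 8 were down-regulated at 20 kPa. At 20 kPa the inner ring subunit Nup205 had a log2 fold change of −0.55, and Ahctf1 (ELYS), which brings the Y complex to chromatin at the end of mitosis, −0.47. Nup133 (−0.41), Nup188 (−0.38), Nup107 (−0.33), Seh1l (−0.29), Nup85 (−0.28) and Nup93 (−0.21) were also down-regulated. At 2 kPa Nup205 (−0.35), Nup188 (−0.29), Nup133 (−0.22) and Nup85 (−0.22) passed the test beside Nup160 and Nup155. These 4 calls were each lost in 5 or more alternative fits, that of Nup133 in 13 and all of them without 2-kPa elastic replicates 1 or 2. At 20 kPa the call of Seh1l was lost without 20-kPa elastic replicate 2 or 20-kPa viscoelastic replicate 2, and that of Nup93 without 20-kPa elastic replicate 3. The 4 scaffold genes that did not pass at 20 kPa were Nup37 (−0.17), Nup43 (−0.16), Nup35 (−0.17) and Sec13 (0.067). The small Y complex subunits Nup37 and Nup43 were instead up-regulated with stiffness on elastic gels, each by 0.30 on the log2 scale.

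Sec13, the Y complex member with the highest estimate at 20 kPa, was at 140.0, 138 and 138 CPM on 2-kPa elastic gels, 148, 140.5 and 136 on 20-kPa elastic gels, 145, 153 and 143 on 2-kPa viscoelastic gels and 152, 143 and 149.6 on 20-kPa viscoelastic gels. Its values in the viscoelastic libraries lay between 143 and 153 CPM and those in the elastic libraries between 136 and 148, so that the groups overlapped at 20 kPa. At 2 kPa they did not, and the viscoelastic libraries were the higher ones. The log2 fold change was 0.067 ± 0.055 (SE, BH-adjusted p = 0.367) at 20 kPa, with a 95% confidence interval from −0.049 to 0.18, and 0.083 ± 0.055 (SE, BH-adjusted p = 0.305) at 2 kPa in edgeR. The estimates of the other 8 Y complex members at 20 kPa all lie below that interval, from −0.54 to −0.16. The 95% confidence intervals of Nup37 (−0.35 to 0.0077) and Nup43 (−0.34 to 0.029) at 20 kPa overlap it, however. At 2 kPa Nup37 (0.0046) and Nup43 (0.024) were, like Sec13, slightly above 0 and did not pass. A test of Sec13 against these members was not made.

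The membrane nucleoporins held the largest decrease among the members called at 20 kPa. Ndc1, which spans the envelope and is needed to insert pores (chromosome 4, 107367784 to 107416346, plus strand), was at 70.2, 73.6 and 68.0 CPM on 2-kPa elastic gels, 79.3, 84.8 and 101 on 20-kPa elastic gels, 53.6, 53.3 and 51.0 on 2-kPa viscoelastic gels and 54.9, 49.0 and 53.5 on 20-kPa viscoelastic gels. The viscoelastic libraries stayed within 49.0 and 54.9 CPM at both stiffnesses, while the 20-kPa elastic libraries ranged up to 101 CPM. On elastic gels the group mean was 70.6 ± 2.84 CPM at 2 kPa and 88.2 ± 11.0 CPM at 20 kPa (SD, n = 3 each), and on viscoelastic gels 52.7 ± 1.43 and 52.5 ± 3.04 CPM. On viscoelastic gels the log2 fold change was −0.75 ± 0.077 (SE, BH-adjusted p = 5.34e-05) at 20 kPa, 0.595-fold, and −0.42 ± 0.077 (SE, BH-adjusted p = 0.00158) at 2 kPa in edgeR, and with stiffness on elastic gels 0.32 ± 0.076 (SE, BH-adjusted p = 0.0109). Without 20-kPa elastic replicate 3 this last call was lost (0.22, adjusted p = 0.0614 in edgeR). Pom121, a membrane protein with FG repeats (chromosome 5, 135376141 to 135394546, minus strand), was at 38.4, 37.6 and 36.1 CPM on 2-kPa elastic gels, 39.1, 41.1 and 43.5 on 20-kPa elastic gels, 31.0, 30.4 and 30.2 on 2-kPa viscoelastic gels and 30.8, 25.8 and 29.3 on 20-kPa viscoelastic gels. Here too the 2 kinds of gel did not overlap at either stiffness. Its log2 fold change was −0.52 ± 0.067 (SE, BH-adjusted p = 0.000107) at 20 kPa and −0.29 ± 0.067 (SE, BH-adjusted p = 0.00715) at 2 kPa in edgeR, and the 2-kPa call was lost with the length and GC correction, with or without the block. The exons of Pom121 overlap those of Nsun5 on the other strand by 665 bases, and since the strand setting of the counting is not given, reads of the pair cannot be told apart.

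Among the FG nucleoporins, Ranbp2 and Nup62 had the lowest adjusted p on viscoelastic against elastic gels. Ranbp2 (Nup358), the cytoplasmic filament protein that binds Ran (chromosome 10, 58446920 to 58494356, plus strand), was at 295, 319 and 282 CPM on 2-kPa elastic gels, 296, 310.2 and 323 on 20-kPa elastic gels, 278, 229.6 and 249 on 2-kPa viscoelastic gels and 238, 206 and 244 on 20-kPa viscoelastic gels. The lowest value was 206 CPM in 20-kPa viscoelastic replicate 2, and elastic and viscoelastic libraries did not overlap at either stiffness. Its log2 fold change was −0.43 ± 0.081 (SE, BH-adjusted p = 0.000996) at 20 kPa and −0.25 ± 0.081 (SE, BH-adjusted p = 0.0435) at 2 kPa in edgeR, and the latter call was lost in 15 alternative fits. Nup62, part of the plug of the central channel (chromosome 7, 44816088 to 44830812, plus strand), was at 35.0, 35.2 and 32.6 CPM on 2-kPa elastic gels, 40.4, 37.7 and 41.5 on 20-kPa elastic gels, 32.1, 30.5 and 29.8 on 2-kPa viscoelastic gels and 33.0, 32.2 and 32.9 on 20-kPa viscoelastic gels. Its 3 libraries on 20-kPa elastic gels were the highest of the 12, and the other 3 groups lay closer together. Viscoelastic gels gave a log2 fold change of −0.29 ± 0.058 (SE, BH-adjusted p = 0.00177) at 20 kPa and −0.15 ± 0.059 (SE, BH-adjusted p = 0.0761) at 2 kPa, and with stiffness on elastic gels 0.22 ± 0.058 (SE, BH-adjusted p = 0.0202) in edgeR. The call with stiffness was lost without 2-kPa elastic replicate 3 or 20-kPa elastic replicate 3. The exons of Nup62 share 97 bases with Il4i1 on the same strand and 82 with Atf5 on the other.

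The channel protein Nup54, which partners Nup62, followed another pattern. It was at 19.6, 20.8 and 19.8 CPM on 2-kPa elastic gels, 23.8, 24.5 and 24.7 on 20-kPa elastic gels, 22.3, 21.5 and 21.7 on 2-kPa viscoelastic gels and 21.7, 21.3 and 22.0 on 20-kPa viscoelastic gels. The low group was 2-kPa elastic gels, all 3 of whose libraries were below the other 9, and the 6 viscoelastic libraries sat between the elastic groups. The log2 fold change with stiffness was 0.28 ± 0.056 (SE, BH-adjusted p = 0.00408) on elastic gels and −0.012 ± 0.056 (SE, BH-adjusted p = 0.936) on viscoelastic gels in edgeR, and the viscoelastic effect was −0.17 ± 0.056 (SE, BH-adjusted p = 0.032) at 20 kPa and 0.12 ± 0.056 (SE, BH-adjusted p = 0.131) at 2 kPa. The 20-kPa call was lost in 8 alternative fits: with total counts alone, without the low-count filter, with the replicate block, and without 20-kPa elastic replicates 2 or 3 or any one 20-kPa viscoelastic library. The remaining FG genes were down-regulated at 20 kPa: Nup214, which holds the mRNA export factor Ddx19 at the cytoplasmic face (−0.38), Nup153 of the nuclear basket (−0.37), Nup98 (−0.31) and Nup50 (−0.20), whose call was lost in 7 alternative fits, 5 of them without a library (2-kPa elastic replicate 2, and replicates 2 or 3 of either 20-kPa group). Nup214 was also down-regulated at 2 kPa (−0.45), where Nup153 (−0.28, adjusted p = 0.0536 in edgeR) was not.

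The other peripheral nucleoporins had the class median closest to 0 at 20 kPa. Tpr, the coiled-coil protein of the nuclear basket (chromosome 1, 150392838 to 150449935, plus strand), was the only one that passed, and was at 368, 381 and 355 CPM on 2-kPa elastic gels, 380.2, 374 and 413 on 20-kPa elastic gels, 339.6, 318 and 338 on 2-kPa viscoelastic gels and 354, 321 and 352 on 20-kPa viscoelastic gels. At 20 kPa all 3 viscoelastic values lay below all 3 elastic ones, with 354 CPM next to 374. In edgeR it changed by −0.18 ± 0.064 (SE, BH-adjusted p = 0.036) on the log2 scale at 20 kPa and −0.15 ± 0.064 (SE, BH-adjusted p = 0.113) at 2 kPa, and the 20-kPa call was lost in 10 alternative fits, the length correction and the replicate block among them. The exons of Tpr overlap Odr4 by 176 and Prg4 by 204 bases on the other strand. Nup88 on the cytoplasmic face (0.055), Rae1, a cofactor of mRNA export (−0.020), and Aaas, the gene of triple A syndrome (−0.16), did not pass at 20 kPa. They did not pass at 2 kPa either, with values from −0.054 to 0.046.

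The importin alpha genes moved by similar amounts at 20 kPa, from −0.23 (Kpna6) to −0.41 (Kpna2) on the log2 scale. Kpna2, the importin alpha most tied to dividing cells (chromosome 11, 106988629 to 106999541, minus strand), was at 59.4, 57.8 and 55.1 CPM on 2-kPa elastic gels, 68.5, 66.5 and 71.7 on 20-kPa elastic gels, 48.2, 51.0 and 47.5 on 2-kPa viscoelastic gels and 56.0, 45.9 and 54.1 on 20-kPa viscoelastic gels. The order was 20-kPa elastic, 2-kPa elastic and then the viscoelastic groups, although 56.0 CPM in 20-kPa viscoelastic replicate 1 lay within the range on 2-kPa elastic gels. Its log2 fold change on viscoelastic gels was −0.41 ± 0.070 (SE, BH-adjusted p = 0.000537) at 20 kPa and −0.23 ± 0.070 (SE, BH-adjusted p = 0.0284) at 2 kPa, and with stiffness on elastic gels 0.26 ± 0.069 (SE, BH-adjusted p = 0.0195) in edgeR. The 2-kPa call was lost in 5 alternative fits, those with total counts alone and without 2-kPa elastic replicates 1 or 2 or 2-kPa viscoelastic replicates 1 or 3. The call with stiffness was lost in 4, those without 2-kPa elastic replicates 2 or 3 or 20-kPa elastic replicate 3 and that with the block and the length and GC correction. Kpna1 (chromosome 16, 35978750 to 36037131, plus strand) was at 67.1, 69.1 and 67.8 CPM on 2-kPa elastic gels, 67.6, 74.6 and 77.9 on 20-kPa elastic gels, 66.4, 56.6 and 57.3 on 2-kPa viscoelastic gels and 60.1, 53.5 and 58.5 on 20-kPa viscoelastic gels. Its 2-kPa viscoelastic replicate 1, at 66.4 CPM, stood close to the 2-kPa elastic values and above the other 2 libraries of its group. Kpna1 had a log2 fold change of −0.36 ± 0.072 (SE, BH-adjusted p = 0.00173) at 20 kPa and −0.18 ± 0.072 (SE, BH-adjusted p = 0.0903) at 2 kPa in edgeR. Kpna3 (−0.29) and Kpna4 (−0.25) were down-regulated at 20 kPa and up-regulated with stiffness on elastic gels (0.26 and 0.25), whereas Kpna6 was down-regulated at both stiffnesses (−0.24 and −0.23). The 20-kPa call of Kpna4 was lost in 5 alternative fits, among them those without 20-kPa elastic replicates 2 or 3 or 20-kPa viscoelastic replicate 2, and the 2-kPa call of Kpna6 without 2-kPa elastic replicate 1.

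Of the importin beta family, Tnpo1 (transportin 1), which imports RNA-binding proteins with a PY signal (chromosome 13, 98839019 to 98926384, minus strand), was at 168, 174 and 171 CPM on 2-kPa elastic gels, 175, 196 and 201 on 20-kPa elastic gels, 172, 140.3 and 136 on 2-kPa viscoelastic gels and 138, 129 and 135 on 20-kPa viscoelastic gels. At 2 kPa the groups overlapped because viscoelastic replicate 1, at 172 CPM, was level with the elastic libraries. At 20 kPa they did not, and the log2 fold change was −0.51 ± 0.080 (SE, BH-adjusted p = 0.000325) there and −0.20 ± 0.080 (SE, BH-adjusted p = 0.0924) at 2 kPa in edgeR. Xpo1 (CRM1), the main export receptor for proteins with a leucine-rich signal (chromosome 11, 23256041 to 23298249, plus strand), was at 209, 216 and 212 CPM on 2-kPa elastic gels, 228, 236 and 257 on 20-kPa elastic gels, 183, 177 and 161 on 2-kPa viscoelastic gels and 184, 165 and 189 on 20-kPa viscoelastic gels. All 6 viscoelastic values, at most 189 CPM, were below all 6 elastic values, at least 209 CPM. Its log2 fold change on viscoelastic gels was −0.42 ± 0.069 (SE, BH-adjusted p = 0.000377) at 20 kPa and −0.29 ± 0.069 (SE, BH-adjusted p = 0.00833) at 2 kPa in edgeR. Ipo5 (−0.40), which imports ribosomal proteins and core histones, and Ipo7 (−0.34), a partner of Kpnb1 in the import of linker histones, were down-regulated at 20 kPa.

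Kpnb1 (importin beta 1) itself, the most abundant member (chromosome 11, 97159714 to 97187881, minus strand), was at 489.9, 495 and 489 CPM on 2-kPa elastic gels, 581, 618 and 659 on 20-kPa elastic gels, 503, 441 and 449.6 on 2-kPa viscoelastic gels and 479.9, 414 and 473 on 20-kPa viscoelastic gels. The 3 libraries of 20-kPa elastic gels stood above the other 9. The 20-kPa viscoelastic libraries lay below the 2-kPa elastic ones, and the range on 2-kPa viscoelastic gels overlapped both. With stiffness its log2 fold change was 0.33 ± 0.074 (SE, BH-adjusted p = 0.00734) on elastic gels and −0.028 ± 0.074 (SE, BH-adjusted p = 0.878) on viscoelastic gels in edgeR. On viscoelastic against elastic gels it was −0.44 ± 0.074 (SE, BH-adjusted p = 0.000457) at 20 kPa and −0.081 ± 0.074 (SE, BH-adjusted p = 0.475) at 2 kPa in edgeR. The exons of Kpnb1 overlap Gm11583 on the other strand by 466 bases.

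Whether stiffness acted differently on the 2 kinds of gel was tested as an interaction, in which the log2 change with stiffness on elastic gels is subtracted from the one on viscoelastic gels. It passed for 2 members, both negative, against 3.04% of all tested genes called negative and 4.30% called positive (edgeR): Nup54 (−0.29 ± 0.079, SE, adjusted p = 0.0359) and Kpnb1 (−0.36 ± 0.10, SE, adjusted p = 0.0462). DESeq2 called 2. In edgeR an unadjusted p under 0.05 was reached by 9 of the 38 members and by 22.3% of all tested genes. That share, taken over both directions, was near the background. The direction was not balanced: 0 of these 9 were positive, and 34 of the 38 estimates were negative. Among all tested genes 53.1% of the estimates were positive. The members' estimates come from the same 12 libraries and are not separate observations. The median was −0.15 for the members and 0.0168 for all tested genes, and this lean was not tested. Ndc1 (−0.33, edgeR adjusted p = 0.0814) and Tnpo1 (−0.31, edgeR adjusted p = 0.113) did not pass. The 2 calls depended on single libraries, since the count was 0 in 9 of the 12 fits without a library. It was 1 without 2-kPa elastic replicate 2, 3 without 2-kPa viscoelastic replicate 2 and 4 without 20-kPa elastic replicate 1. The 9 fits with 0 were those without 2-kPa elastic replicates 1 or 3, 20-kPa elastic replicates 2 or 3, 2-kPa viscoelastic replicates 1 or 3, or any library of 20-kPa viscoelastic gels.

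**Figure D4:**
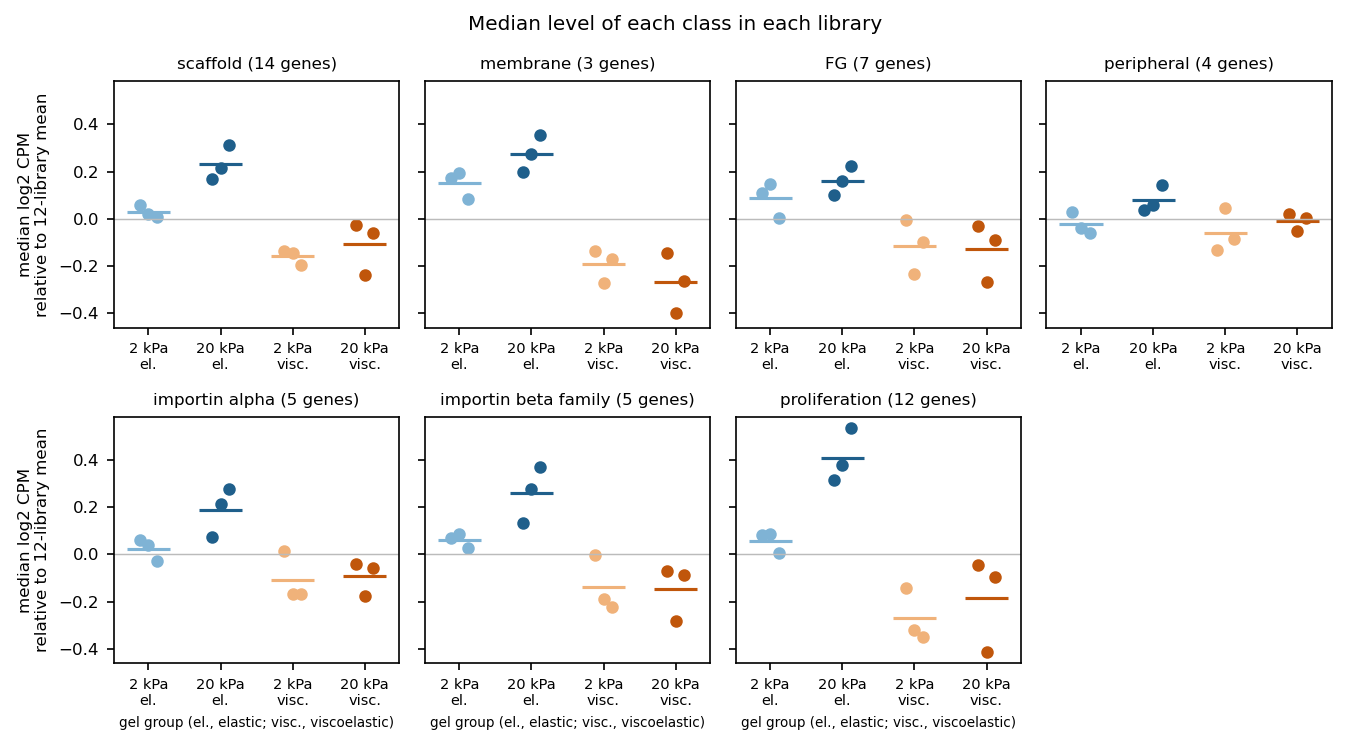
Median over the genes of a class of log2 CPM relative to each gene's mean over the 12 libraries (vertical), for the 12 libraries by gel group (horizontal), with 1 point per library and a line at the mean of the 3 points, for 6 classes and for 12 proliferation genes. In the scaffold, membrane and importin classes the 20-kPa elastic points lie highest, and the proliferation genes span the widest range, from −0.41 to 0.53.

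Genes of cell division moved with the list. Of 12 proliferation genes (Mki67, Top2a and Cdk1 among them) 11 were down-regulated on viscoelastic gels at 20 kPa and 6 at 2 kPa. The shares of all tested genes were 16.0% and 11.1%. With stiffness on elastic gels 9 of the 12 were up-regulated, against 6.83% of all tested genes. On viscoelastic gels 0 passed with stiffness in edgeR, where 1.60% of all tested genes were higher and 0.722% lower. There 3 of the 12, and 2750 of all 14542 tested genes, had an unadjusted p under 0.05 in edgeR, and DESeq2 called 0 of the 12. Their median log2 fold change on viscoelastic gels was −0.59 at 20 kPa and −0.34 at 2 kPa, against 0.0165 and −7.47e-05 for all tested genes. Summed, they took between 1730 and 1990 CPM on 20-kPa elastic gels, 1390 and 1480 on 2-kPa elastic gels, 1070 and 1190 on 2-kPa viscoelastic gels and 981 and 1270 on 20-kPa viscoelastic gels. Library by library, the median proliferation gene was lowest in 20-kPa viscoelastic replicate 2 (−0.41 relative to its mean) and highest in 20-kPa elastic replicate 3 (0.53), the libraries in which the median member of the list was lowest and highest too. By EdU labelling after the same time on the gels, the study reports that proliferation rose with stiffness on elastic gels. It also reports more proliferation on viscoelastic than on elastic gels when these were softer, and no significant difference on the stiffest. The median of the 12 transcripts was instead lower on viscoelastic gels at both stiffnesses. The labelling gives a share of cells and the transcripts give RNA levels, and why the 2 differ was not tested. The part of proliferation in the values of the pore and transport genes was not tested.

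Other genes of the pathway were tested beside the list. Among 15 further transport receptors 7 were down-regulated on viscoelastic gels at 20 kPa and 4 at 2 kPa in edgeR, against 16.0% and 11.1% of all tested genes, with 0 called with stiffness on either gel (DESeq2 called 2 higher on elastic and 0 on viscoelastic gels). The export factor of importin alpha, Cse1l (CAS), was lower by a log2 fold change of −0.45 on the stiffer gels and of −0.34 on the softer ones, and the exportin Xpo4 by −0.55 and −0.37. In edgeR the unadjusted p of stiffness was under 0.05 for 6 of the 15 on elastic gels, led by Ipo11 (0.23, adjusted p = 0.0545) and Tnpo3 (0.17, adjusted p = 0.0636), and for 1 on viscoelastic gels, Tnpo2 (−0.17, adjusted p = 0.127), with Ipo13 (−0.14) next. Over all 14542 tested genes this p was under 0.05 for 4161 on elastic and for 2750 on viscoelastic gels. Of 7 other nucleoporin and pore-bound genes, only the channel protein Nup58 (listed as Nupl1) passed in a comparison of 2 groups, with −0.45 at 20 kPa on viscoelastic gels and 0.28 with stiffness on elastic gels. A count of 1 in 7 is close to the 16.0% of all tested genes that were lower at 20 kPa. Averaged over both stiffnesses, 2 of the 7 were lower on viscoelastic gels, against 20.5% of all tested genes (edgeR). None of the 7 passed at 2 kPa, where the membrane protein Tmem33 (−0.16) and the mRNA export helicase Ddx19a (−0.11) had the lowest adjusted p. There 0 of the 7, and 4954 of all 14542 tested genes, had an unadjusted p under 0.05 in edgeR, and DESeq2 called 0 of the 7. After Nup58 the lowest adjusted p at 20 kPa was that of Tmem33 (−0.17) and with stiffness on elastic gels that of Ddx19b (0.12). On viscoelastic gels Ddx19a (0.084) and Nup210l (−0.12) came first with stiffness, and neither passed.

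Genes of the Ran cycle and of mRNA export were also tested. Rangap1, which turns Ran to its GDP form at the cytoplasmic filaments, fell on viscoelastic gels at both stiffnesses (−0.53 at 20 kPa and −0.41 at 2 kPa), and Rcc1, the exchange factor on chromatin, at 20 kPa (−0.34), while Ranbp3, an export cofactor, had −0.17 at 2 kPa (edgeR adjusted p = 0.061). Of the 8 tested Ran cycle genes 4 were up-regulated with stiffness on elastic gels, against 6.83% of all tested genes. They were Ranbp1 (0.30), Rcc1 (0.32), Rangap1 (0.26) and Ran itself (0.23). Ranbp1, a cofactor of Rangap1, was also up-regulated with stiffness on viscoelastic gels (0.35), where the value for Ran was 0.25 (adjusted p = 0.0533 in edgeR). Among 12 mRNA export genes 2 were higher and 1 lower on viscoelastic gels at 20 kPa: Thoc7 of the THO complex (0.28), Eny2 of the TREX-2 complex (0.26) and Mcm3ap (GANP), the TREX-2 scaffold (−0.28). These counts do not exceed the 17.3% higher and 16.0% lower among all tested genes. Thoc7 was also higher on 20-kPa than on 2-kPa viscoelastic gels (0.26), and 0 of the 12 passed at 2 kPa or with stiffness on elastic gels in edgeR, where 2 in each had an unadjusted p under 0.05 and DESeq2 called 1 in each. In edgeR, 4954 of all 14542 tested genes had an unadjusted p under 0.05 at 2 kPa, and 4161 with stiffness on elastic gels. The mRNA export adaptor Alyref came nearest at 2 kPa (−0.18, edgeR adjusted p = 0.0511) and, with 0.15, after Thoc1 of the THO complex (0.19) with stiffness on elastic gels, and had 0.18 with stiffness on viscoelastic gels.

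The members are longer than the typical tested gene, and exon length moved with the comparison across all genes. The median exon length (merged exons, GENCODE vM21) was 6.416 kb for the 38 members and 4.332 kb for all tested genes. At 20 kPa the median log2 fold change on viscoelastic gels went from 0.19 for genes under 2 kb to −0.14 for genes over 12 kb. Read within length classes, 5 of 11 members of 2 to 4 kb were down-regulated at 20 kPa, where 9.19% of all genes of that length were, 6 of 6 of 4 to 6 kb (16.2%), 7 of 7 of 6 to 8 kb (26.1%), 10 of 12 of 8 to 12 kb (28.7%) and 2 of 2 over 12 kb (35.8%). In fits corrected for exon length in each sample 30 members were down-regulated at 20 kPa (median −0.31) and 13 at 2 kPa (median −0.13), and in fits corrected for length and GC content 32 and 11.

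**Figure D5:**
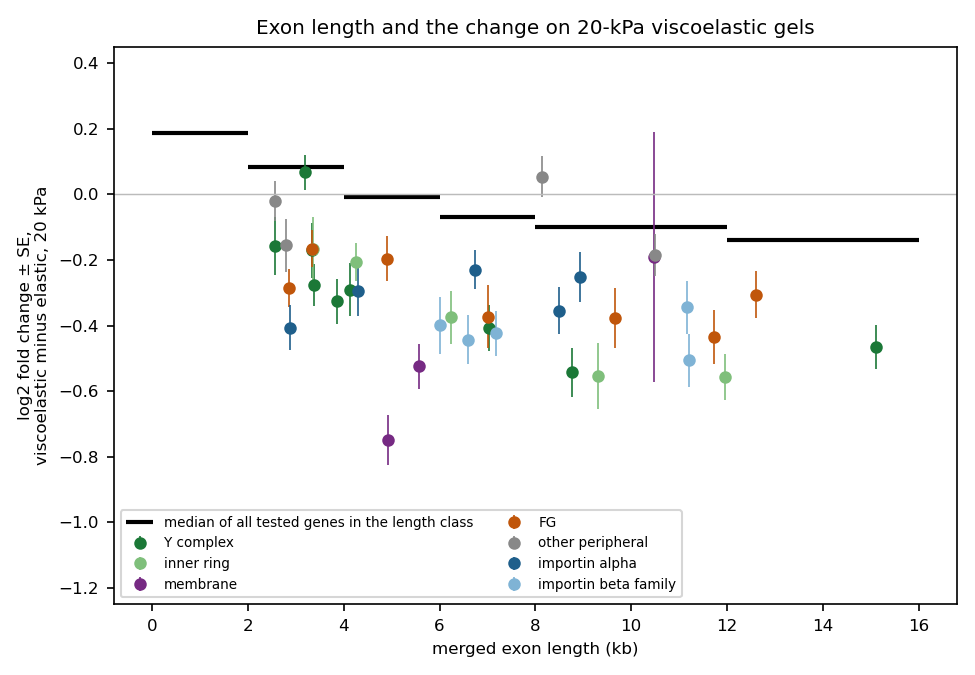
Log2 fold change and its standard error on viscoelastic against elastic gels at 20 kPa (vertical) against merged exon length in kb (horizontal) for the 38 genes, coloured by class, with black lines at the median of all tested genes in each length class. The black lines step down from 0.19 to −0.14 with length, and 2 genes, Sec13 and Nup88, lie above 0.

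The sequence before the starts of the members, whether called at 20 kPa or not, was read for shared letters. Members not called there, such as Sec13 and Nup37, are thus part of the shares below. Promoter windows from RefSeq (GRCm38.p6) matched 31 of the 38 members with 36 windows, and 5 short motifs were searched on both strands in the 250 bases before each start. The CCAAT box, bound by NF-Y, was in 44.4% of the members' windows and in 35.4% of 21262 windows of all protein-coding genes, and the GC box GGGCGG, bound by the Sp factors, in 58.3% and 42.6%. TTTGAA, the core of the CHR element of cell cycle genes, was in 25.0% and 14.5%, the ETS core CCGGAAG in 19.4% and 9.0%, and GCGCATG, from the site of NRF1, in 16.7% and 4.0%. A match is a run of letters and not a shown site, and no test was made of these shares. The 150 bases before the start are given for 5 of the genes described above, written 5′ to 3′ on the strand of the gene, with motif letters in capitals. They were chosen because they fell at 20 kPa and show windows with several, 1 or no motifs. In the window of Nup62 the GCGCATG of the 2 strands overlap.
Nup62, chr7:44815938-44816087, plus strand: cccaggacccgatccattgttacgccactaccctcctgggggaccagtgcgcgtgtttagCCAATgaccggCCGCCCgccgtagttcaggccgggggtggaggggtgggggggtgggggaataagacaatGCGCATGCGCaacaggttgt
Xpo1, chr11:23255891-23256040, plus strand: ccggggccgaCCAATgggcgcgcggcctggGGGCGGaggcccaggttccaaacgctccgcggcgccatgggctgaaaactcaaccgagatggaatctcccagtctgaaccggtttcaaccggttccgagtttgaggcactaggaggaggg
Kpnb1, chr11:97187893-97188042, minus strand: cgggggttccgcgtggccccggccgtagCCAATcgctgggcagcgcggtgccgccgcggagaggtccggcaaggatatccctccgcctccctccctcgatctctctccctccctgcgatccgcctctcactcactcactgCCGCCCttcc
Pom121, chr5:135394547-135394696, minus strand: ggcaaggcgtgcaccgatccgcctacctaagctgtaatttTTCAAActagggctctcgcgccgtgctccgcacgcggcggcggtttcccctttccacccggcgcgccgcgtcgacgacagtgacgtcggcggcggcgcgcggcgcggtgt
Nup160, chr2:90677065-90677214, plus strand: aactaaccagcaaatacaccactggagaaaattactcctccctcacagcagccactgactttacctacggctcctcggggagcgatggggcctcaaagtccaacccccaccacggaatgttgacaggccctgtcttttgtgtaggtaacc

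The window of Nup62 holds a CCAAT box, a GC box on the other strand and both NRF1-type runs, and those of Xpo1 and Kpnb1 hold a CCAAT box and a GC box each, at different distances from the start. The window of Pom121 has the CHR core alone, on the other strand. That of Nup160 has none of the 5 motifs within these 150 bases. Nup160, Xpo1 and Pom121 passed the test on viscoelastic gels at both stiffnesses, and Nup62 and Kpnb1 at 20 kPa.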

How the data were processed

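Poly-A RNA of 12 samples was sequenced. Per the labels and the study's methods, the authors trimmed reads with Trimmomatic, aligned them to mm10 with STAR and counted them per gene with featureCounts, and the deposited values are raw counts per gene symbol, not normalized. The annotation release, the strand setting and the handling of multi-mapping reads are not given in the sources used here. The entries Kpna2.ps and Ranbp2.ps2 of pseudogenes hold 0 counts.

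The tests used edgeR 4.0.16 under R 4.3.3 (filterByExpr with a minimum count of 10, TMM, robust quasi-likelihood fit, 1 coefficient per group over all 12 samples), which left 14542 of 33246 genes, and p-values were BH-adjusted over all of them, with 0.05 as the threshold and no fold minimum. The biological coefficient of variation was 7.50%. CPM are TMM-scaled, and SD are over n = 3. The fit was tested on simulated counts with known changes. Alternatives were DESeq2 1.42.0, its size factors in edgeR, total counts alone, no low-count filter, only the compared samples, replicate number as a block, corrections for exon length and GC content, and leaving out each library. Positions and lengths are from GENCODE vM21 (GRCm38). Length was known for 98.44% of the tested genes.

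The members and all lists were chosen with earlier results of these data known. Values in all 12 samples are given for up to 2 members of each class with the lowest adjusted p among those called between 2 groups, and for members called in the interaction. From each list of other genes, the 2 with the lowest adjusted p in each comparison are named. Sec13 and further genes of these lists (Mcm3ap, Ran and Rangap1 with stiffness) were described after their values were seen.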

Additional observations from a re-analysis of the deposited data

Results flagged for a closer look

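The effect of stiffness differed between the 2 kinds of gel for 2 of the 38 genes, by edgeR's test of the interaction itself. Both were negative, and over all tested genes 3.04% were called negative and 4.30% positive. A count of 2 is small, and it was not tested against these shares. For Nup54, a protein of the central channel, the log2 change with stiffness was 0.28 on elastic and −0.012 on viscoelastic gels, a difference of −0.29 (edgeR adjusted p = 0.0359). For Kpnb1 (importin beta 1) it was 0.33 on elastic and −0.028 on viscoelastic gels, a difference of −0.36 (edgeR adjusted p = 0.0462). Each call was lost in 11 of the alternative fits, most of them fits without a library.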

How the results depend on the processing

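No called gene changed direction under any alternative run. Between viscoelastic and elastic gels at 20 kPa, the members called ran from 25 to 32 over all alternatives against 30, and 24 of these 30 genes kept the call in every one. For the mean viscoelastic effect 25 of the 28 genes did, for 2 kPa 5 of 13 (Nup160, Nup155, Ndc1, Nup214 and Xpo1), for stiffness on elastic gels 2 of 11 and for the interaction 0 of 2. Leaving out 1 library gave 6 to 18 members at 2 kPa, 2 to 14 for stiffness on elastic gels and 0 to 4 for the interaction. With the replicate number as a block, 7 members were called for stiffness on elastic gels and 0 for the interaction, against 11 at 2 kPa, 28 at 20 kPa and 28 for the mean effect, and the cause was not tested. The replicate numbers share only a number: deviations of same-numbered samples had a mean correlation of −0.025 across genes, and 2 of 18 pairs were over 0.1. With 3 samples a group and Nup210 at 8 to 30 counts, the changes of that gene were imprecise: at 2 kPa its log2 fold change was −0.77, with a 95% confidence interval from −1.49 to −0.046 and an adjusted p of 0.124 in edgeR.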
